A study of Bos taurus with 8 samples.

Results

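The MCM genes described here encode the DNA helicase of chromosome replication and proteins closely related to it. They were taken as every probe whose gene symbol in the platform annotation is MCM2, MCM3, MCM4, MCM5, MCM6, MCM7, MCM8 or MCM10. This gave 8 genes of the 15229 symbols on the array, with 3 probes for MCM2 and 1 for each of the others, and all 10 probes passed the detection filter. MCM2 was singled out because its ratio of insulin over control was known to be high. Its ratios, and those of the other MCM genes in the same arrays, are therefore given as descriptions. Where MCM probes past the threshold of the fit over all probes are counted, the count stands beside that of all probes and supports nothing.

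The samples were Bos taurus blastocysts produced in vitro from oocytes of slaughterhouse ovaries. The low-dose group (INS0.1) came from oocytes matured with 0.1 ug/ml bovine insulin, and the high-dose group (INS10) from oocytes matured with 10 ug/ml. Control blastocysts came from oocytes matured with 0 ug/ml added insulin. Insulin was given only during oocyte maturation, so RNA was measured after fertilisation and embryo culture. Each of 8 two-colour arrays carried insulin and control RNA in opposite dyes, with 4 arrays per dose, and the dyes were swapped on replicates 3 and 4. How many embryos made up a replicate is not stated in the labels, nor whether both doses shared the same control RNA. The RNA was amplified before labelling.

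MCM2 to MCM7 form a ring of 6 different subunits. In G1 phase ORC, CDC6 and CDT1 load this ring onto replication origins as an inactive complex, and CDC45 and the GINS complex join it in S phase to make the active helicase. MCM10 acts in the switch to the active form, and MCM8 works with MCM9 in recombination repair rather than in the ring. Early embryos divide rapidly, and the genes of this machinery are classical targets of E2F transcription factors.

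Median spot intensity was 163 to 255 in Cy5, where the background median was 33 to 47, and 234 to 348 in Cy3, where it was 31 to 37. Precision is limited by having 8 arrays: the SE of a probe was 0.161 at the median for a dose effect, 0.228 for the difference between doses and 0.114 for the mean of both doses, in log2 units. The embryo identity of the samples was checked with marker genes: 9 of 11 trophectoderm, 6 of 10 inner cell mass and 7 of 8 hypoblast genes with a probe exceeded background in all 16 readings, a reading being 1 channel of 1 array. The same held for 4 of 14 cumulus and granulosa genes, 2 of 12 oocyte genes and 1 of 8 sperm genes. In single channels, 44.09 to 58.76% of all probes exceeded background, and the share that did so in all 16 readings is not given here. Without INS0.1 replicate 1, 218 of the 29384 probes tested passed limma's test at INS0.1. With it, 32 passed (64 with the replicate number as a block). The calls at INS0.1 were lost without INS0.1 replicate 2 or 3. The log2 ratios of INS0.1 replicate 1 had an SD of 0.370, against 0.298 to 0.4305 on the other arrays. Values of the brightest MCM2 probe are given with and without INS0.1 replicate 1, the only array on which its ratio was negative. Leaving that array out therefore raises them.

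MCM2, a subunit of the ring and a target of the CDC7 kinase that activates origins, was higher with insulin by 1 of its 3 probes (EMBV3_05298, here probe 1). Probe 1 stands for the gene because its mean intensity over all 16 readings was the highest, and that rests on its insulin channels, with a median of 948 units against 524 for probe 2. In the control channels the median was 453 units for probe 1 and 693 for probe 2. The log2 ratios of insulin over control were -0.15, 1.04, 1.17 and 1.09 on INS0.1 replicates 1 to 4 and 1.79, 1.12, 0.87 and 0.65 on INS10 replicates 1 to 4. The insulin channel was thus brighter on 7 of 8 arrays, and the exception was INS0.1 replicate 1. The 4 ratios of each dose overlapped those of the other.

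The channel intensities behind these ratios show the same arrays apart. Insulin RNA gave 326, 953, 1490 and 943 normalised intensity units on INS0.1 replicates 1 to 4, against 361, 464, 664 and 443 for the control RNA on the same arrays. On INS10 replicates 1 to 4, insulin RNA gave 1136, 1278, 943 and 668 units, against 327, 588, 515 and 425 for the control RNA. Insulin channels averaged 928 units at INS0.1 and 1006 units at INS10, and the control channels beside them averaged 483 and 464 units. All 16 readings of probe 1 were above background.

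The fitted effect of probe 1 was 0.79 at INS0.1 (1.73-fold, SE 0.208, n = 4 arrays) and 1.11 at INS10 (2.16-fold, SE 0.208, n = 4 arrays). The array ratios had an SD of 0.625 at INS0.1 and 0.495 at INS10 (n = 4 each). Averaged over both doses the effect was 0.95 (1.93-fold, SE 0.147, n = 8), and the INS10 effect exceeded the INS0.1 effect by 0.32 with an SE of 0.294. Among all 29384 probes these effects lay at the 99.6th percentile at INS0.1 and at the 99.9th percentile at INS10. Without INS0.1 replicate 1, the fitted INS0.1 effect was 1.16 and the fitted mean of both doses 1.14. With that array out the dyes are unbalanced, so these values carry a dye correction and are not plain means of the ratios left. In whole-embryo RNA, more cells of a type and more RNA per cell cannot be told apart.

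**Figure D1:**
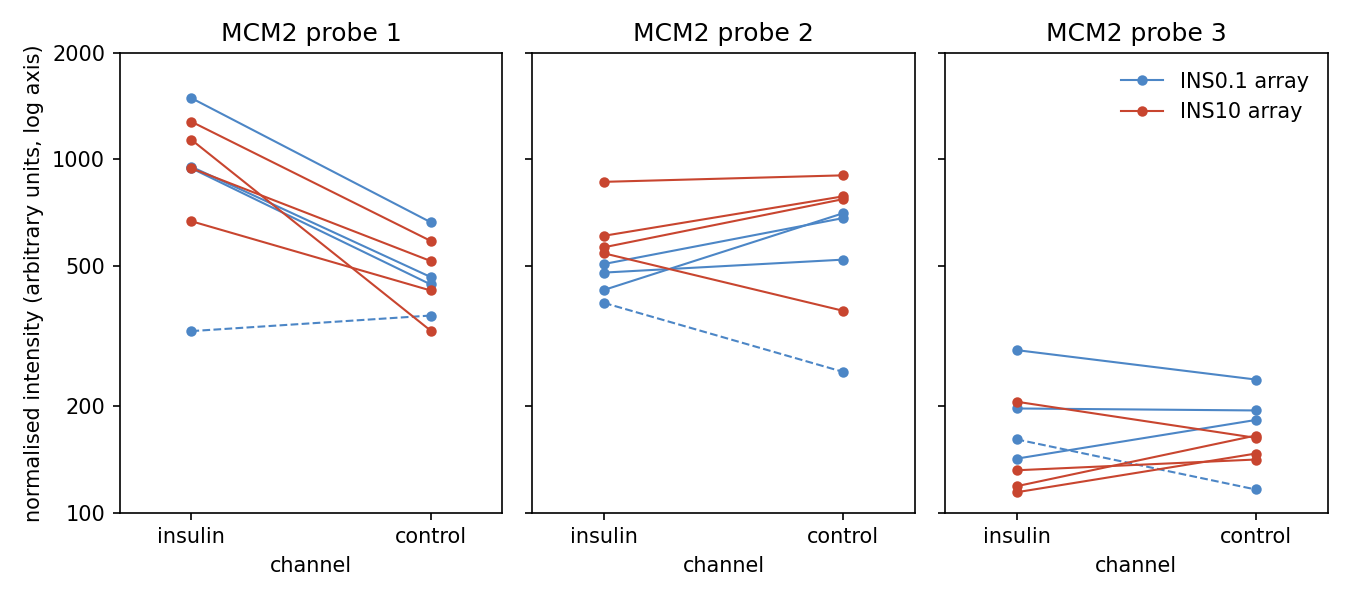
Normalised channel intensity of each MCM2 probe (log scale), with insulin RNA on the left and control RNA on the right of each pair, 1 line per array. For probe 1 the insulin channel lies above the control channel on 7 of 8 arrays, and the dashed line is INS0.1 replicate 1.

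The other 2 probes with the symbol MCM2 had mean ratios near or below 0. Probe 2 (EMBV3_32359) had log2 ratios of 0.65, -0.43, -0.72 and -0.12 on INS0.1 replicates 1 to 4 and 0.54, -0.37, -0.06 and -0.45 on INS10 replicates 1 to 4. It was positive only on replicate 1 of each dose. Probe 2 was not dim, with all 16 readings above background and 392 to 864 units in the insulin channels against 250 to 901 units in the control channels. Its fitted effects were -0.16 at INS0.1 and -0.09 at INS10 (SE 0.189 each), and -0.12 for the mean of both doses (SE 0.133).

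Probe 3 of MCM2 (EMBV3_27029) was close to background. It exceeded background in 2 of 8 insulin readings and in 2 of 8 control readings, with 114 to 288 units in the insulin channels against 116 to 238 units in the control channels. Its log2 ratios were 0.47, 0.02, -0.36 and 0.28 on INS0.1 replicates 1 to 4 and -0.48, -0.10, -0.36 and 0.34 on INS10 replicates 1 to 4, with both signs at each dose. The fitted effects of probe 3 were 0.10 at INS0.1 and -0.15 at INS10 (SE 0.172 each), and -0.02 for the mean of both doses (SE 0.122).

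A statement about MCM2 as a gene therefore depends on the probe. With all 3 probes averaged, the MCM2 effect was 0.24 at INS0.1, 0.29 at INS10 and 0.27 for the mean of both doses. Where on the transcript each probe lies was not analysed here. Among named genes with more than 1 kept probe, 71 had a brightest probe that passed limma's test as higher for the mean of both doses, as did 1.48% of all probes. Another probe of the same gene passed as well in 23 of them (32.4%). In 9 of the 71 genes (12.7%), MCM2 among them, no other probe had a positive effect.

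The 5 partners of MCM2 in the ring, with 1 probe each, stayed nearer to equal signal in both channels. MCM3, MCM4, MCM5 and MCM7 had all 16 readings above background, as did MCM6. MCM7, a core subunit of the ring's catalytic part with MCM4 and MCM6, was the partner whose ratios were positive on every INS10 array. Its log2 ratios were -0.28, -0.16, 0.48 and 0.17 on INS0.1 replicates 1 to 4 and 0.58, 0.32, 0.10 and 0.18 on INS10 replicates 1 to 4. MCM7 had fitted effects of 0.05 at INS0.1 and 0.29 at INS10 (SE 0.160 each), with 1414 to 2332 units in the insulin channels against 1327 to 1975 units in the control channels.

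MCM5, which with MCM2 flanks the gate where the ring opens, had the widest range over the 8 arrays among the partners. Its log2 ratios were -0.11, -0.12, 0.54 and 0.49 on INS0.1 replicates 1 to 4 and 1.11, -0.26, -0.10 and 0.20 on INS10 replicates 1 to 4. The 1 ratio above 1 came from INS10 replicate 1, the array on which MCM2 probe 1 was also highest. The fitted effects of MCM5 were 0.20 at INS0.1 and 0.24 at INS10 (SE 0.195 each), and the fitted INS10 effect was -0.14 without INS10 replicate 1. The last value carries a dye correction and is not the plain mean of the ratios left.

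MCM3, MCM4 and MCM6, which complete the ring, had effects on either side of 0. MCM3 had log2 ratios of 0.08, 0.19, -0.47 and -0.17 on INS0.1 replicates 1 to 4 and 0.10, -0.06, 0.14 and 0.28 on INS10 replicates 1 to 4. MCM4 had 0.48, -0.19, -0.66 and -0.29 on the INS0.1 arrays and 0.31, 0.08, -0.10 and -0.25 on the INS10 arrays, in the same order. MCM6 had -0.21, 0.13, -0.18 and -0.59 on the INS0.1 arrays and 0.26, 0.00, 0.01 and -0.22 on the INS10 arrays. Each of these genes thus had both signs at each dose. Fitted effects at INS0.1 were -0.10 for MCM3 (SE 0.154), -0.16 for MCM4 (SE 0.157) and -0.21 for MCM6 (SE 0.151). At INS10 they were 0.12 for MCM3, 0.01 for MCM4 and 0.01 for MCM6, with the same SEs.

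**Figure D2:**
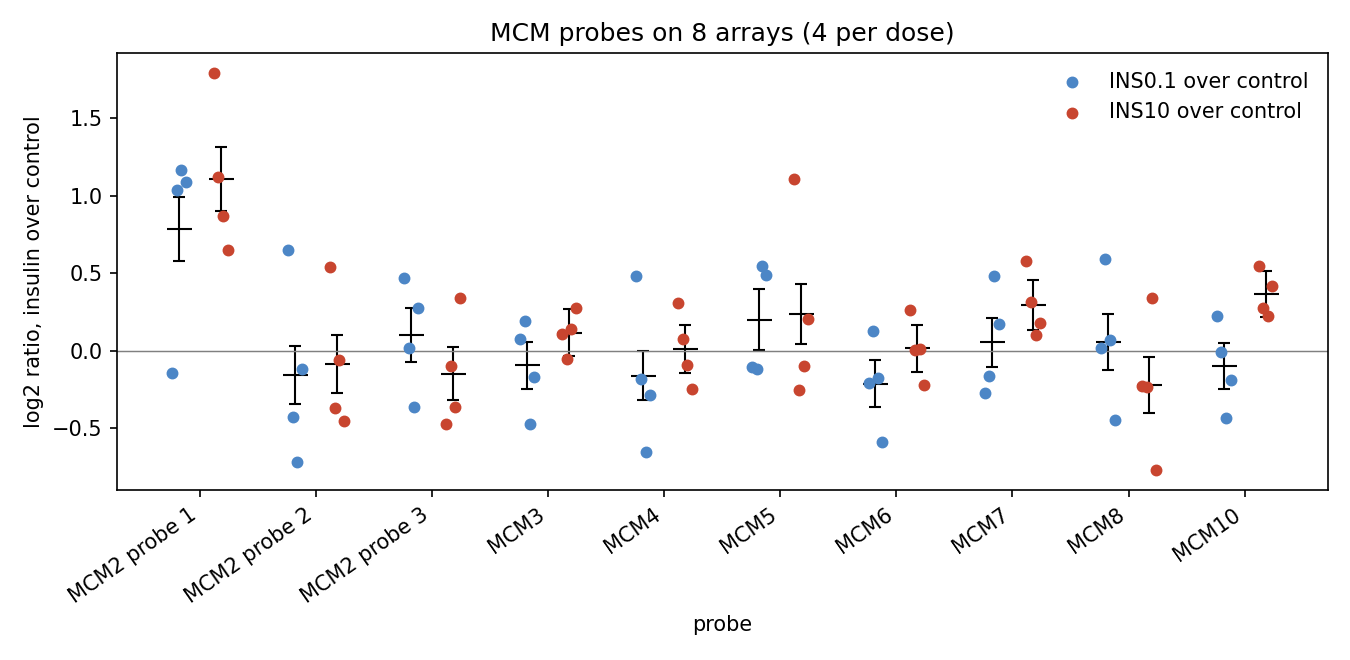
Log2 ratio of insulin over control for each MCM probe on each of the 4 INS0.1 and 4 INS10 arrays (points), with black marks at the fitted dose effect and its SE. MCM2 probe 1 stands above 0 on 7 of 8 arrays, and the points of the other 9 probes lie on both sides of 0 over the 8 arrays.

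On each array the log2 ratio of MCM2 probe 1 was set against the median log2 ratio of MCM3 to MCM7. That partner median was -0.11, -0.12, -0.18 and -0.17 on INS0.1 replicates 1 to 4 and 0.31, 0.00, 0.01 and 0.18 on INS10 replicates 1 to 4. It was below 0 on all INS0.1 arrays, where 2 of 5 partners were positive each time, and above 0 on all INS10 arrays, where 3 to 5 partners were positive. The difference of MCM2 probe 1 minus the partner median was -0.04, 1.16, 1.35 and 1.27 on INS0.1 replicates 1 to 4. It was 1.49, 1.12, 0.86 and 0.48 on INS10 replicates 1 to 4.

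MCM2 probe 1 thus exceeded each of its 5 partners on 7 of 8 arrays. The difference averaged 0.93 ± 0.652 at INS0.1 and 0.99 ± 0.426 at INS10 (SD, n = 4 each), and 0.96 ± 0.511 over both (SD, n = 8). Leaving out INS0.1 replicate 1 gave a mean of 1.10. The same difference for MCM2 probe 2 was -0.11 ± 0.458, and for MCM2 probe 3 it was -0.01 ± 0.445 (SD, n = 8 each). The distance between MCM2 and the rest of the ring was thus present for 1 of 3 MCM2 probes.

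**Figure D3:**
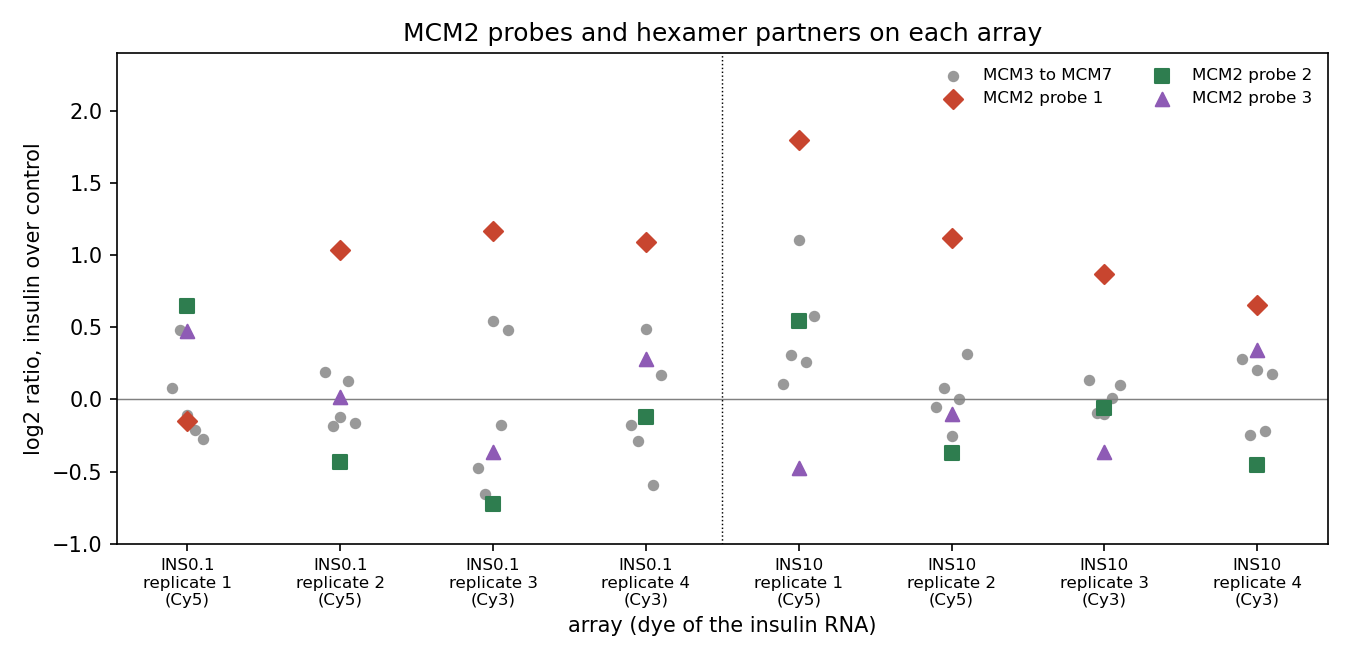
Log2 ratio of insulin over control on each of the 8 arrays for the 3 MCM2 probes (coloured symbols) and for MCM3, MCM4, MCM5, MCM6 and MCM7 (grey points), with INS0.1 arrays left of the dotted line and INS10 arrays right of it. MCM2 probe 1 lies above all 5 partners on 7 of 8 arrays, with a mean distance of 0.96 from their median, while probes 2 and 3 lie among the partners or below them on most arrays.

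MCM10, which helps turn the loaded ring into a moving helicase, differed between the doses more than any other MCM probe. Its log2 ratios were 0.23, -0.01, -0.43 and -0.19 on INS0.1 replicates 1 to 4 and 0.54, 0.27, 0.22 and 0.42 on INS10 replicates 1 to 4. All INS10 arrays were positive and 3 of 4 INS0.1 arrays were negative, with an overlap between the doses through INS0.1 replicate 1. The fitted effects of MCM10 were -0.10 at INS0.1 and 0.37 at INS10 (1.29-fold, SE 0.149 each), a difference between doses of 0.47 (SE 0.211). Its signal was low, with 237 to 428 units in the insulin channels against 198 to 380 units in the control channels, though above background in all 16 readings.

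MCM8, the recombination helicase subunit, was near background, with 7 of 8 insulin readings and 8 of 8 control readings above it. Its log2 ratios were 0.02, 0.59, 0.07 and -0.45 on INS0.1 replicates 1 to 4 and -0.23, -0.24, 0.34 and -0.77 on INS10 replicates 1 to 4. Both doses had ratios of either sign. The fitted effects of MCM8 were 0.06 at INS0.1 and -0.22 at INS10 (SE 0.181 each).

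Read as a group without MCM2, the 7 MCM genes had a median effect of -0.10 at INS0.1, with 3 of 7 positive and a range of -0.21 to 0.20. At INS10 their median was 0.12, with 6 of 7 positive and a range of -0.22 to 0.37. MCM4 and MCM6, both at 0.01, are counted as positive there and were negative with median centring. For the difference of INS10 over INS0.1 the median was 0.21, again with 6 of 7 positive. Over all 11708 named genes the medians were 0.00 in each of these comparisons.

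At INS0.1, 0 of 10 MCM probes passed limma's test (adjusted p under 0.05 over all probes), beside 0.109% of all probes, and 1 of 10 had an unadjusted p under 0.05, beside 7.68% of all probes. At INS10, 1 of 10 passed, MCM2 probe 1, beside 0.436% of all probes, and 2 of 10 (with MCM10) had an unadjusted p under 0.05, beside 6.77%. For INS10 over INS0.1, 0 of 10 passed, beside 0% of all probes, and 1 of 10 had an unadjusted p under 0.05, beside 2.88% (845 probes). For the mean of both doses 1 of 10 passed, again MCM2 probe 1, beside 1.65% of all probes, and 1 of 10 had an unadjusted p under 0.05, beside 10.3%. Ratios above 0 on all 4 INS10 arrays were found for 3 of 10 MCM probes (MCM2 probe 1, MCM7 and MCM10), beside 6.7% of all probes, and on all 4 INS0.1 arrays for 0 of 10, beside 6.1%. In no MCM probe did the 4 INS10 ratios lie wholly above or wholly below the 4 INS0.1 ratios, as they did in 0.581% and 0.584% of all probes. Since MCM2 was chosen on these contrasts, nothing is read from the counts. Each dose was hybridised on its own slide, as the deposited files are named, so dose and slide cannot be told apart.

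Dye orientation was compared because the dyes were swapped on 2 of 4 arrays per dose. The log2 ratio of MCM2 probe 1 averaged 0.95 with insulin in Cy5 and 0.95 with insulin in Cy3. MCM2 probe 2 averaged 0.10 with insulin in Cy5 and -0.34 with insulin in Cy3. The widest gap was that of MCM4, with 0.17 for insulin in Cy5 and -0.32 for insulin in Cy3, and its fitted dye effect was 0.25 (SE 0.111). In 8 of 10 MCM probes the mean was higher with insulin in Cy5, though for 2 of them, MCM2 probes 1 and 3, the orientations differed by less than 0.1. Replicates 1 and 2 had insulin in Cy5 at both doses, so a dye difference cannot be told apart from a difference between replicates. Each dose held both orientations equally, so the difference cancels in the dose effects above, with or without a dye term. The dye term in the fit changes the SEs and the calls, as given in the closing section.

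**Figure D4:**
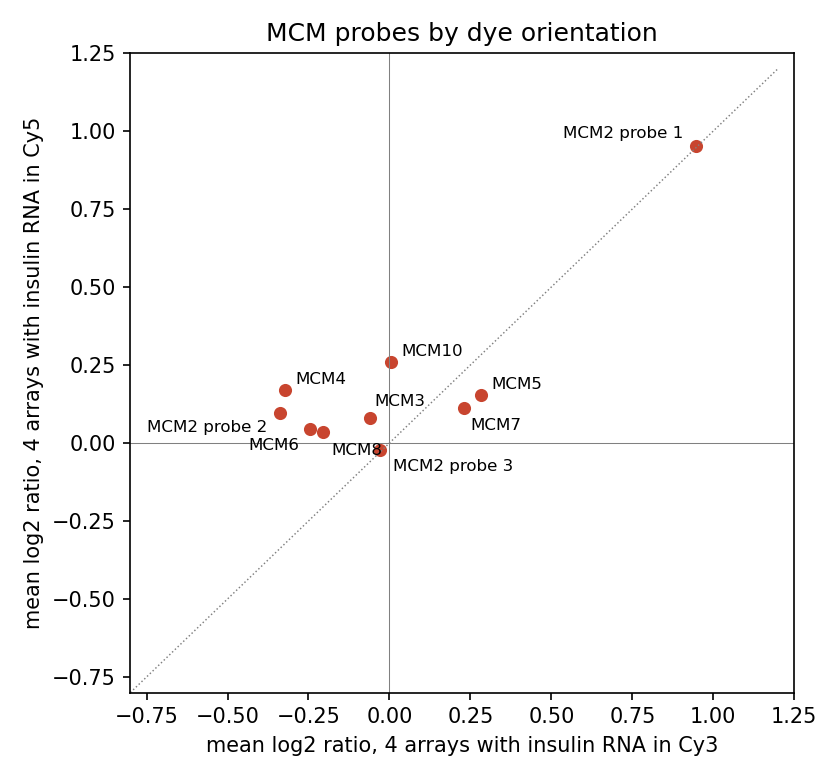
Mean log2 ratio of insulin over control for each MCM probe on the 4 arrays with insulin in Cy3 and on the 4 arrays with insulin in Cy5, with the line of equality. MCM2 probe 1 lies at 0.95 in both orientations, and the other probes lie between -0.34 and 0.28.

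The 5 named genes whose ratios over the 8 arrays were most like those of MCM2 probe 1 were LRFN3 (Pearson r = 0.953), MRPL28 (0.929), MSRA (0.926), GFI1 (0.926) and PPP1R7 (0.922). The 8 points share the dose, the slide and the control design, and over 11665 named genes r had a median of 0.0212 with a central 95% range of -0.677 to 0.735. MRPL28, a protein of the mitochondrial ribosome, had log2 ratios of 0.13, 1.07, 0.96 and 1.12 on INS0.1 replicates 1 to 4 and 1.24, 0.78, 0.76 and 0.54 on INS10 replicates 1 to 4. Its ratio was lowest on INS0.1 replicate 1 and highest on INS10 replicate 1, as for MCM2 probe 1. These genes were picked for their correlation. PPP1R7, a regulatory subunit of protein phosphatase 1, had an effect of 0.64 for the mean of both doses. The mean effects of LRFN3 (-0.03), GFI1 (-0.04) and MSRA (0.17) were much smaller than that of MCM2 probe 1.

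The wider replication machinery was read from 6 lists of 110 genes that hold none of the 8 MCM genes, of which 95 had a kept probe. At INS0.1, 0 of 95 passed limma's test, beside 0.145% of named genes higher and 0% lower, with 5 higher and 5 lower at an unadjusted p under 0.05 (5.24% and 3.57% of named genes). At INS10, 0 of 95 passed, beside 0.581% of named genes higher and 0.00854% lower, with 4 higher and 1 lower at an unadjusted p under 0.05 (5.16% and 2.72% of named genes). For INS10 over INS0.1 again 0 passed, with 1 higher and 2 lower at that level (1.34% and 1.49% of named genes). For the mean of both doses 2 of 95 rose and 0 fell, beside 2.13% of named genes past the test as higher and 0.196% as lower. The count of 2 is thus the share that all named genes show. Of the 95, 5 were higher and 5 lower at an unadjusted p under 0.05 (7.35% and 4.46% of named genes). Effects were positive in 32 of 95 genes at INS0.1, with a median of -0.08, and in 50 of 95 at INS10, with a median of 0.01. The lists were chosen with earlier results of these arrays known.

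LIG1 and POLA2 were the genes that rose, both from the list of replication fork proteins. LIG1, DNA ligase I, which joins Okazaki fragments, had log2 ratios of 0.17, 0.87, 0.71 and 0.98 on INS0.1 replicates 1 to 4 and 1.15, 0.69, 1.18 and 0.13 on INS10 replicates 1 to 4. All 8 arrays were positive, as for 1.34% of all probes, with INS0.1 replicate 1 and INS10 replicate 4 lowest. Its mean effect over both doses was 0.74 (1.67-fold, SE 0.130, limma adjusted p = 0.00299). With trend and robust eBayes, under which 0 of all probes passed, the adjusted p of LIG1 was 0.101. LIG1 was at 0.68 at INS0.1 (limma adjusted p = 0.168) and at 0.79 at INS10 (limma adjusted p = 0.0621).

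POLA2, the B subunit of DNA polymerase alpha-primase, which starts each new strand, had log2 ratios of -0.22, 0.40, 1.32 and 0.43 on INS0.1 replicates 1 to 4. On INS10 replicates 1 to 4 they were 0.66, 0.80, 1.29 and 0.11. Of 8 arrays 7 were positive, and the negative one was INS0.1 replicate 1, as for MCM2 probe 1. The mean effect of POLA2 was 0.60 (1.51-fold, SE 0.141, limma adjusted p = 0.0282), with 14 of 16 readings above background. The call was lost without any 1 of INS0.1 replicates 2 and 3 and INS10 replicates 1, 2 and 3, where the adjusted p was 0.083 to 0.164. The other 27 measured fork genes did not pass the test, and the list's median effect was -0.05 for the mean of both doses.

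No gene that loads or licenses the ring passed the test. In the licensing list (ORC subunits, CDC6, CDT1, geminin, MCM9 and MCM-binding proteins) 0 of 12 passed for the mean of both doses, with a median of -0.09. The list's median on single arrays ran from -0.22 to 0.23. MCM9, the partner of MCM8 in recombination repair, is counted here and not in the recombination list. GMNN, geminin, the inhibitor of CDT1, was at -0.24 (limma adjusted p = 0.41). CDT1, the loading factor itself, was at 0.24 (limma adjusted p = 0.46) and was the 1 positive gene of the 12. MCM3AP, which binds MCM3, was at -0.19 (limma adjusted p = 0.569).

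The genes that fire origins and build the active helicase had a median of -0.01 for the mean of both doses over 17 of 20 measured, and 0 passed. GINS1, a subunit of the GINS complex, was at -0.23 (limma adjusted p = 0.513), with its other probes at -0.16 and -0.21. DBF4, the activator of the CDC7 kinase, was at -0.20, and DONSON, a factor in helicase assembly, was at -0.14. In this list, 4 of 17 genes were positive at INS0.1 and 12 of 17 at INS10.

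E2F and RB factors with enzymes of nucleotide synthesis had a median of 0.06 over 16 of 20 measured genes, and 0 passed. RRM2, the small subunit of ribonucleotide reductase, was at -0.38 (limma adjusted p = 0.122) and was below 0 on all 8 arrays, as were 0.618% of all probes. The other 3 probes of RRM2 were at 0.15, -0.11 and -0.13, so its direction depends on the probe. DUT, which keeps uracil out of DNA, was at 0.34 (limma adjusted p = 0.169), with other probes at 0.35 and -0.07, and TK1, thymidine kinase, was at 0.26 (limma adjusted p = 0.453). These genes lay on both sides of 0.

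Proliferation markers, all 13 measured, had a median of -0.07 at INS0.1 with 3 positive and 0.10 at INS10 with 11 positive, and 0 passed at either dose. PLK1, a mitotic kinase, was at 0.26 for the mean of both doses (limma adjusted p = 0.526) with its other probe at -0.12, and BUB1B and BUB1, of the spindle checkpoint, were at -0.11 and 0.10. The recombination genes that work with MCM8 had a median of -0.14 over 8 of 14 measured, and 0 passed. RAD50 (-0.27), NBN (-0.17) and BLM (-0.15) were the named genes of that list.

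**Figure D5:**
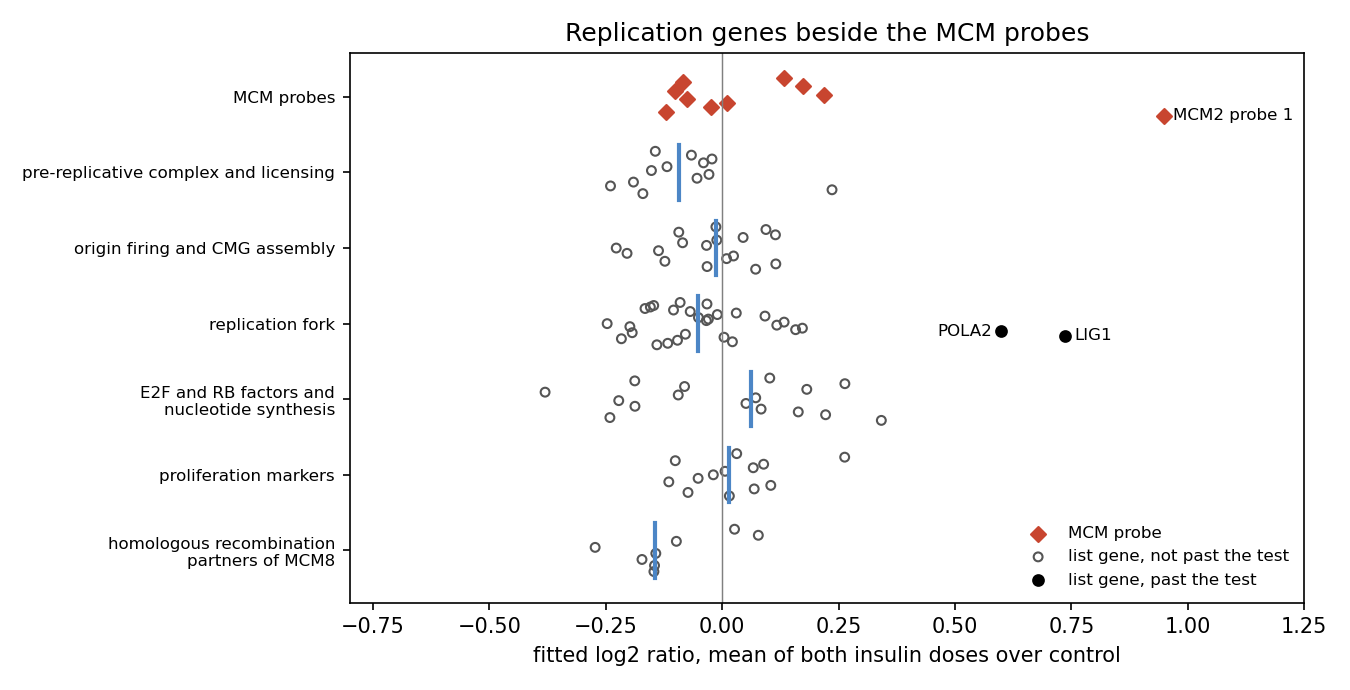
Fitted log2 ratio of insulin over control for the mean of both doses, 1 symbol per MCM probe or per measured list gene, with a blue bar at the median of each list. LIG1 (0.74) and POLA2 (0.60) are the filled points, the list genes that passed the test, and the list medians run from -0.14 to 0.06.

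A few cell type markers passed the test, and most did not. For the mean of both doses 2 of 11 trophectoderm, 2 of 9 inner cell mass and 1 of 8 hypoblast markers passed limma's test as higher, beside 2.13% of named genes. These were TEAD4 (0.69) and GATA2 (0.57), SOX2 (0.69) and DNMT3B (0.51), and APOA1 (0.68). The other probe of TEAD4 was at 0.15 and that of APOA1 at 0.65. Among 10 measured cumulus and granulosa markers 1 rose, CYP11A1, a steroid synthesis enzyme, by 0.84 (limma adjusted p = 0.00346), while 4 of 10 were positive and the list's median was -0.06. Summed over that list, intensity was 15610 to 24210 units in insulin channels and 11920 to 22090 units in control channels. Among 5 measured sperm markers PRM1, a protamine, was lower at -0.64 (limma adjusted p = 0.00439), beside 0.196% of named genes past the test as lower. The other measured sperm markers did not pass. The sperm list summed to 868 to 1635 units in insulin channels and 1204 to 2004 units in control channels. None of the 7 measured oocyte markers passed, with 6616 to 11700 units in insulin channels and 8174 to 14590 units in control channels, and GDF9, ZP2, ZP4, ZAR1 and NLRP5 were too dim to be kept. The part of these cell types in the MCM2, LIG1 and POLA2 ratios was not tested.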

How the data were processed

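Each array held 45212 spots with an ID, of which 43794 were bovine probes. From the deposited scanner files, the median raw intensity and median background of each spot in Cy5 and Cy3 were used, per the file headers. The authors' deposited table of log2 ratios was used as an alternative; its normalization is not given in the sources used here.

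Intensities were corrected with normexp (offset 50) and log2 ratios loess-normalised in limma 3.58.1 (R 4.3.3), then turned to insulin over control. Channel intensities are shown after Aquantile scaling. A probe was kept when it exceeded the mean of 153 negative control spots by 2 SD in at least 4 of 16 readings, which left 29384 probes. limma (lmFit, eBayes) fitted 1 effect per dose and a dye effect over 8 arrays, with Benjamini-Hochberg adjustment at 0.05. Steps were tested on simulated data. A gene is given by its brightest kept probe. Symbols came from the platform annotation, with 982 updated through RefSeq synonyms.

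The MCM genes and the gene lists were chosen with earlier results of these data known. Named genes are every MCM probe, list genes past the test or otherwise the 3 of lowest unadjusted p for the mean of both doses, and the 5 most correlated with MCM2 probe 1.

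The labels give 4 biological replicates per treatment, and nothing says that a number marks a shared batch. Deviations from the group mean correlated at 0.221 to 0.312 between arrays of the same number and at -0.217 to 0.0956 between others. The main fit does not pair arrays of the same number, so its SEs and p-values take the 8 arrays as independent. If both doses shared control RNA, the arrays are not independent, and the SEs and p-values for the mean of both doses could be too small. Fits with the replicate block were run as an alternative and are given in the closing section. Alternatives covered background correction, centring, the dye term, filters, eBayes options, the authors' ratios and leaving out each array.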

Additional observations from a re-analysis of the deposited data

Results flagged for a closer look

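In 4 of 72 groups of 4 arrays examined, 1 array lay apart from the other 3 (gap over range above Dixon's critical value); chance gives about 1 in 20 groups. MCM2 probe 1 had a log2 ratio of -0.15 on INS0.1 replicate 1, against 1.04 to 1.17 on the other INS0.1 arrays. MCM2 probe 1 minus the partner median was -0.037 on that array, against 1.16 to 1.35. The median of the recombination genes that work with MCM8 was 0.14 on that array, against -0.25 to -0.21. DONSON was at -0.79 on INS10 replicate 4, against 0.12 to 0.27 on the other INS10 arrays. The 2 MCM2 values share the same reading and are not separate observations. Why these arrays differ was not tested.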

How the results depend on the processing

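The distance of MCM2 probe 1 from its partners (0.96) was 0.88 to 1.10 without single arrays and 0.90 to 1.01 under other background correction, centring or the authors' ratios. It was 0.28 with all MCM2 probes averaged, -0.11 with MCM2 probe 2 and -0.014 with MCM2 probe 3, the last 2 chosen after seeing the data. Settings of the fit do not enter it. Of 624 MCM effects under alternatives, 622 moved by less than the spread between arrays, and the other 2 were MCM2 with its probes averaged. The dye term, fitting each dose alone, the filters and the eBayes options leave the fitted effects as they are. Part of the 622 therefore could not move. Among called values 0 were turned in direction. Effects not called were not counted for direction, and several small ones turned. That of MCM5 at INS10 turned negative without INS10 replicate 1. With median centring, MCM4 (-0.055) and MCM6 (-0.039) at INS10 and MCM7 at INS0.1 (-0.025) turned negative. For the mean of both doses, MCM3 turned negative (-0.057) and MCM2 probe 3 positive (0.005) under that setting.

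Counts of limma calls moved more. At INS0.1 (32 of all probes) they were 2 with offset 16, 9 with no background correction, 8 with median centring, 0 with no dye term, 0 with each dose fitted alone, 58 with probes detected in all readings, 0 with trend and robust eBayes and 64 with the replicate block. At INS10 (128) they were 0 with offset 16, with no dye term and with trend and robust eBayes, and 297 with each dose alone. For the mean of both doses (484) they were 262 with no dye term and 0 with trend and robust eBayes. Where 0 passed, 1360 to 2659 probes had an unadjusted p under 0.05.

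Leaving out 1 array gave 0 (without INS0.1 replicate 2 or 3) to 218 calls at INS0.1, 0 (without INS10 replicate 1, 2 or 3) to 199 at INS10 and 275 to 605 for the mean. The call of MCM2 probe 1 at INS10 (1 of 10 MCM probes) was lost, leaving 0, with offset 16, no dye term, trend and robust eBayes and without INS10 replicate 1, 2 or 3. At INS0.1 it was gained (1 against 0) without INS0.1 replicate 1. For the mean it was lost only with trend and robust eBayes (0).

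Of LIG1 and POLA2 (2 calls), POLA2 was lost with offset 16, no background correction and no dye term (1 left each) and was not tested under the filter for all readings, which removes it (1 left). Both calls were lost with trend and robust eBayes (0). Without single arrays 1 to 2 remained. LIG1 had an adjusted p of 0.00059 to 0.101 over the alternatives and 0.0106 with the replicate block. POLA2 had 0.00274 to 0.176, and 0.0427 with the block. The block changed no call of an MCM probe, LIG1 or POLA2. Dim signal limits MCM2 probe 3, MCM8 and MCM10.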

Other observations

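The genes that flank the MCM genes on the chromosome, by RefSeq order (ARS-UCD2.0), were read as well, a choice made after the MCM values were seen. Of 16 neighbours 11 had a kept probe, and 0 passed limma's test for the mean of both doses, with 1 at an unadjusted p under 0.05 and adjusted p-values of 0.236 to 0.995. PODXL2 and TPRA1, on either side of MCM2, were at -0.11 (SE 0.116) and 0.00 (SE 0.129), beside 0.95 for MCM2 probe 1. PRKDC, the catalytic subunit of the DNA-dependent protein kinase beside MCM4, was at -0.16. AP4M1 and COPS6 beside MCM7 were at 0.17 and 0.12. CRLS1, the cardiolipin synthase gene beside MCM8, was the farthest from 0 at -0.31.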
